A study of Mus musculus with 18 samples.

Results

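Inflammasome and pyroptosis genes were followed in mouse dendritic cells (DCs) that were confined, exposed to LPS or left alone, in the presence or absence of the lipid-releasing enzyme cPLA_2_. The members were the 10 genes *Nlrp3*, *Nlrc4*, *Nlrp1b*, *Mefv*, *Nek7*, *Pycard*, *Casp1*, *Casp4*, *Gsdmd* and *Ninj1*, taken by gene symbol, and each matched 1 of the 62197 genes in the deposited table. Inflammasomes are cytosolic complexes in which a sensor recruits, usually through the adaptor ASC, the protease caspase-1. Caspase-1 matures IL-1β and IL-18 and cleaves gasdermin D, whose fragments form pores in the plasma membrane, and NINJ1 then ruptures the membrane of the dying cell. In myeloid cells the NLRP3 sensor and pro-IL-1β are made in quantity only after a priming signal such as LPS, while caspase-11, encoded by *Casp4* in the mouse, binds cytosolic LPS itself.

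Bulk RNA-seq of polyadenylated RNA covered 6 conditions with 3 libraries each. Cells labelled as DCs were bone marrow cultures grown for 10 days with GM-CSF, and the knockout carried a floxed *Pla2g4a* gene (encoding cPLA_2_) that was deleted by Cre under the *Itgax* (CD11c) promoter, so that only cells which had expressed CD11c could lose it. Nonconfined cPLA_2_ WT and cPLA_2_ KO DCs were labelled as untreated and as collected at the end of the culture, although a protocol text attached to all 18 samples describes LPS. Confined cPLA_2_ WT and cPLA_2_ KO DCs were held at a height of 3 µm and collected 4 h after confinement. The LPS groups of either genotype label received 100 ng ml-1 LPS for 30 min (25 min in the Methods of the study), were washed and were kept until the next day. Treatment therefore cannot be told apart from time after culture or from handling. The study calls the libraries of a condition biological replicates, the labels do not say whether they came from separate mice or cultures, and p-values measure the spread between these libraries.

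Libraries held 33027230 to 61300021 reads on genes, with a median of 40950397. Levels are given as normalized counts, which are reads per gene divided by a size factor of the library. Changes are differences in mean log2(normalized count + 1), with the standard error (SE) and the adjusted p of limma over all 17875 genes that passed a filter on low values, which all 10 members passed. A gene was called at an adjusted p under 0.05. Because these are bulk libraries, fewer cells of a type and less RNA per cell cannot be told apart.

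Genotype labels were first checked against marker genes. *Pla2g4a* was present at 697, 686 and 770.4 normalized counts in the nonconfined cPLA_2_ WT libraries and at 548, 542 and 533 in the nonconfined cPLA_2_ KO libraries. Confined libraries held 1369, 1430.3 and 1321 for cPLA_2_ WT and 923, 871 and 919.5 for cPLA_2_ KO. The knockout was thus lower without overlap in nonconfined and in confined cells, although the gene-level count remained well above 0. In the libraries labelled LPS cPLA_2_ KO, by contrast, *Pla2g4a* was at 1065, 1032 and 1028, above the 1005, 969 and 967 of the libraries labelled LPS cPLA_2_ WT. *Acot1*, which was between 377 and 626 in the 6 nonconfined and confined cPLA_2_ KO libraries and no higher than 6.76 in the 6 corresponding cPLA_2_ WT libraries, was at 54.9, 0.915 and 33.6 in the libraries labelled LPS cPLA_2_ WT and at 0, 49.2 and 40.7 in those labelled LPS cPLA_2_ KO. *Ddx3y*, a gene of the Y chromosome, was at most 3.05 in nonconfined and confined cPLA_2_ WT libraries and at least 874 in the cPLA_2_ KO ones, and *Xist*, transcribed from the inactive X chromosome of female cells, was at 27953, 33681 and 30681 in nonconfined and 22734, 33482 and 29759 in confined cPLA_2_ WT and at 12153, 19081 and 14328 in nonconfined and 16979.6, 24835 and 20600.0 in confined cPLA_2_ KO libraries. The cPLA_2_ KO libraries thus held Y-linked RNA and *Xist* together, and genotype cannot be told apart from the mix of donor sexes. In LPS libraries *Ddx3y* was at 1271, 0 and 662 under the cPLA_2_ WT label and at 2.12, 1476 and 783 under the cPLA_2_ KO label. The LPS libraries therefore did not part by their genotype labels. None was a second sequencing run of another, since the squared difference of each pair of LPS libraries with different labels was 3.43 to 10.9 times that of sampling noise (median over genes) and of each pair with the same label 4.49 to 11.2 times, against 2.87 to 10.2 within the other groups. The closest pairs carried different labels, cPLA_2_ WT 3 with cPLA_2_ KO 3 (3.43) and cPLA_2_ WT 2 with cPLA_2_ KO 1 (3.50). Library cPLA_2_ WT 1 was closest to cPLA_2_ KO 2 (4.73), which was itself closer to cPLA_2_ KO 3 (4.49). In *Ddx3y* and in *Acot1*, each library labelled cPLA_2_ WT lay nearest to this same library labelled cPLA_2_ KO. LPS results are given over all 6 libraries, which the tests treat as separate. Whether these pairs share a culture cannot be told. If they do, the p-values with LPS are too small. Genotype within LPS is given only by label.

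Confinement of cPLA_2_ WT DCs moved every member past the threshold, with higher *Nlrp3*, *Nlrc4*, *Mefv*, *Casp1*, *Casp4* and *Ninj1* and lower *Nlrp1b*, *Nek7*, *Pycard* and *Gsdmd*. These 6 higher and 4 lower of 10 members compare with 56.6% of all genes tested that were called, 28.2% higher and 28.4% lower. In cPLA_2_ KO DCs 3 members were higher with confinement (*Casp4*, *Mefv* and *Ninj1*; 22.8% of all genes), 3 were lower (*Nlrp3*, *Pycard* and *Gsdmd*; 23.4%) and 4 were not called, where 46.3% of all genes were called. The interaction, which is the confinement change in cPLA_2_ KO minus that in cPLA_2_ WT cells, was called for 9 of 10 members beside 25.8% of all genes. It was negative for 7 of them (15.6% of all genes) and positive for 2 (10.2%). LPS moved all 10 members beside 71.5% of all genes, 7 up (37.2%) and 3 down (34.3%), although *Gsdmd*, 1 of those up, was lower when libraries were scaled to the same total.

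Because so many genes were called, the members were also counted at an absolute log2 change above 1 besides the adjusted p. With confinement in cPLA_2_ WT cells 4 of 10 were higher (*Nlrp3*, *Mefv*, *Casp4* and *Ninj1*) beside 11.4% of all genes, and 1 was lower (*Nlrp1b*) beside 7.62%. With the same total per library *Nlrp3* (0.998) was no longer above 1 and *Pycard* (-1.22) was also below -1. In cPLA_2_ KO cells only *Ninj1* was higher (6.43% of all genes) and no member lower (5.53%). The interaction passed for *Nlrp3*, *Mefv* and *Casp4* on the negative side (6.56% of all genes) and for *Nlrp1b* on the positive side (1.11%). With LPS 6 members were higher (15.6%) and 2, *Pycard* and *Nlrp1b*, lower (13.4%). The median member changed by 0.74 with confinement in cPLA_2_ WT cells, by 0.06 in cPLA_2_ KO cells and by 1.21 with LPS, while the median of all genes tested was -0.01, 0.01 and 0.02.

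**Figure D1:**
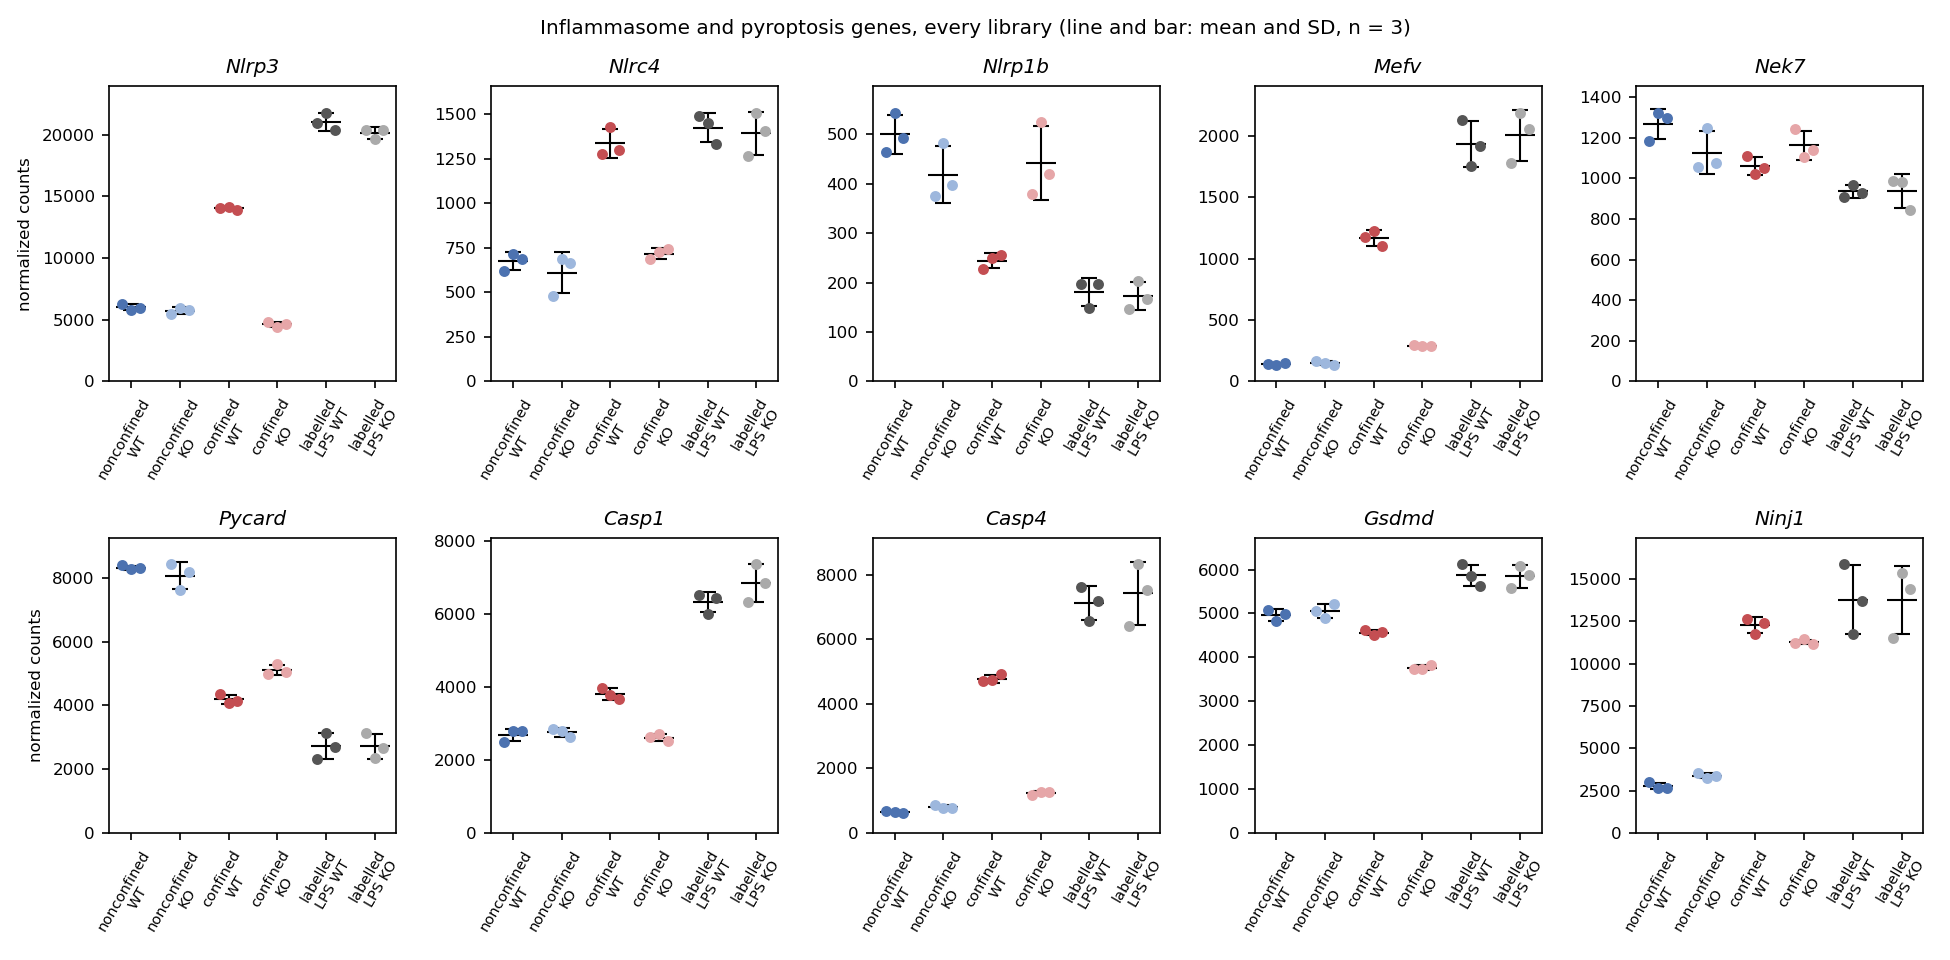
Normalized counts (vertical axes, linear from 0) of each member in every library, by condition, with the mean and SD over 3 libraries. *Nlrp3*, *Casp4* and *Mefv* were high in confined cPLA_2_ WT cells and lower in confined cPLA_2_ KO cells, whereas *Ninj1* was high in both.

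*Nlrp3* (GSMG0007467, chr11:59432395-59457782, plus strand, 10 exons in its canonical transcript) encodes the sensor that responds to potassium efflux and other signs of membrane damage. It was at 6276, 5828 and 5941 normalized counts in nonconfined cPLA_2_ WT and at 5443, 5987 and 5753 in nonconfined cPLA_2_ KO libraries. After confinement it was at 14022, 14152 and 13924 in cPLA_2_ WT but at 4808, 4433 and 4687 in cPLA_2_ KO libraries. The nonconfined groups overlapped, the confined cPLA_2_ WT libraries were higher than all of them and the confined cPLA_2_ KO libraries lower than all of them. In cPLA_2_ WT cells *Nlrp3* had a log2 rise of 1.22 (SE 0.04, adjusted p = 1.17e-15, limma), a 2.33-fold increase, and fell by 0.30 in cPLA_2_ KO cells (SE 0.04, adjusted p = 9.75e-06). The interaction was -1.53 (SE 0.06, adjusted p = 3.3e-14). No other member changed in opposite directions in the 2 genotypes with a call in each. Over the 6 LPS libraries *Nlrp3* ranged from 19610.4 to 21766 with a median of 20393, above every other library of the study, and rose by 1.81 against nonconfined cells (SE 0.03, adjusted p = 5.71e-22).

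*Mefv* (GSMG0021291, chr16:3525079-3535988, minus strand, 9 exons) encodes the sensor pyrin. Nonconfined libraries held 140.2, 136 and 150.4 normalized counts in cPLA_2_ WT and 164, 149 and 138 in cPLA_2_ KO libraries. Confined libraries held 1177, 1225 and 1099 in cPLA_2_ WT and 300.0, 287 and 289.8 in cPLA_2_ KO cells, and the LPS libraries ranged from 1753 to 2188 with a median of 1984. Nonconfined libraries of the 2 genotypes overlapped, and the order nonconfined, confined cPLA_2_ KO, confined cPLA_2_ WT, LPS held without overlap. *Mefv* rose by 3.03 with confinement in cPLA_2_ WT cells (SE 0.09, adjusted p = 3.88e-17, limma), 8.16-fold, and by 0.96 in cPLA_2_ KO cells (SE 0.09, adjusted p = 1.99e-08), 1.94-fold, with an interaction of -2.07 (SE 0.13, adjusted p = 3.3e-11). With LPS it rose by 3.74 (SE 0.06, adjusted p = 4.2e-22).

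*Nlrc4* (GSMG0025286, chr17:74733290-74766104, minus strand, 9 exons) encodes the partner of the NAIP receptors for bacterial flagellin and secretion systems. Nonconfined libraries held 619, 719 and 686 normalized counts in cPLA_2_ WT and 478, 689 and 664 in cPLA_2_ KO cells, and confined libraries 1280.4, 1432 and 1299 in cPLA_2_ WT and 686, 728 and 742 in cPLA_2_ KO cells. The confined cPLA_2_ WT libraries lay within the LPS range, from 1266 to 1509 with a median of 1429, and the confined cPLA_2_ KO libraries overlapped the nonconfined ones. *Nlrc4* rose by 0.99 in cPLA_2_ WT cells (SE 0.10, adjusted p = 5.37e-08, limma). In cPLA_2_ KO cells the difference was 0.25 (95% confidence interval 0.04 to 0.47, adjusted p = 0.0533), which passed the threshold when nonconfined cPLA_2_ KO library 2 or 3 was left out (0.35 and 0.32) and shrank to 0.09 without library 1. It was also called with a filter of 100 normalized counts (adjusted p = 0.0453) and in the fit without LPS libraries, chosen after the results were seen (adjusted p = 0.0471). The interaction was -0.73 (SE 0.15, adjusted p = 0.000717). *Slc30a6* overlaps *Nlrc4* on the opposite strand. The study describes strand-specific libraries, but whether the counting used the strand is not given in the sources used here. Reads of the 2 genes may therefore have been mixed.

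*Nlrp1b* (GSMG0009496, chr11:71043928-71121559, minus strand, 14 exons), the sensor of anthrax lethal factor and of DPP9 inhibition, was lower with LPS and, among confined cells, in cPLA_2_ WT. Its levels were 465, 543 and 491 in nonconfined and 227, 249.5 and 256 in confined cPLA_2_ WT libraries, and 375, 483 and 397 in nonconfined and 379.8, 526 and 420.1 in confined cPLA_2_ KO libraries. The cPLA_2_ WT groups did not overlap and the cPLA_2_ KO groups did. It fell by 1.03 in cPLA_2_ WT cells (SE 0.14, adjusted p = 2.53e-06, limma), and the difference in cPLA_2_ KO cells was 0.07 (95% confidence interval -0.22 to 0.37, adjusted p = 0.704). The interaction was 1.10 (SE 0.20, adjusted p = 0.000263), the highest of the 10 members. LPS libraries ranged from 147 to 203 with a median of 181, below all others. *Nlrp1a* and *Nlrp1c-ps* are close relatives of *Nlrp1b*, and how reads shared between them were counted is not given in the sources used here. *Nlrp1c-ps* differed in the same directions, by -1.26 in cPLA_2_ WT cells (adjusted p = 0.000153) and by 1.26 for the interaction (adjusted p = 0.00944). *Nlrp1a*, outside the rule for named genes and named after its values were seen, fell in cPLA_2_ WT cells, at -0.72 (adjusted p = 9.11e-06), and in cPLA_2_ KO cells, at -0.36 (adjusted p = 0.00984), and its interaction was not called (0.35, adjusted p = 0.104).

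*Nek7* (GSMG0002454, chr1:138410613-138547495, minus strand, 10 exons) encodes the kinase that binds NLRP3 and licenses its assembly. Its group means spanned a narrower range of folds than those of any other member. It was at 1184, 1323 and 1299 normalized counts in nonconfined and 1109, 1024 and 1051 in confined cPLA_2_ WT libraries, and at 1056, 1249 and 1078 in nonconfined and 1243, 1106 and 1139 in confined cPLA_2_ KO libraries. The cPLA_2_ WT groups did not overlap, and the cPLA_2_ KO groups did. LPS libraries ranged from 844 to 988 with a median of 950. Against nonconfined cells *Nek7* fell by 0.35 with LPS (SE 0.05, adjusted p = 5.47e-06, limma), or by 0.85 with the same total per library. *Nek7* fell by 0.26 in cPLA_2_ WT cells (SE 0.08, adjusted p = 0.00674, limma; -0.48 with the same total per library), and the difference in cPLA_2_ KO cells was 0.05 (95% confidence interval -0.11 to 0.21). Its interaction of 0.30 passed narrowly (adjusted p = 0.0434) and was lost with TMM scaling (0.27, adjusted p = 0.0806), with edgeR (0.26, adjusted p = 0.0773), and without the filter on low values (adjusted p = 0.0691). It grew to 0.49 with the same total per library (adjusted p = 0.00153). The call was also lost without nonconfined cPLA_2_ WT library 2 (0.27) or 3 (0.28), nonconfined cPLA_2_ KO library 1 (0.26) or 3 (0.27), confined cPLA_2_ WT library 2 (0.28) or 3 (0.30), or confined cPLA_2_ KO library 1 (0.25) or 3 (0.32).

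*Pycard* (GSMG0052583, chr7:127590545-127593039, minus strand, 3 exons) encodes ASC, the adaptor that polymerizes into specks. Like *Nlrp1b* and *Nek7*, and unlike *Nlrp3*, *Mefv* and *Nlrc4*, it fell with LPS, and it also fell with confinement in either genotype. Its levels were 8387, 8258 and 8305 in nonconfined and 4353, 4061 and 4146 in confined cPLA_2_ WT libraries, 8418, 7599.8 and 8183 in nonconfined and 4985, 5280.5 and 5054 in confined cPLA_2_ KO libraries, and from 2326 to 3140.5 with a median of 2684 over the LPS libraries. The 2 nonconfined groups overlapped, and otherwise the conditions were apart, with LPS lowest. *Pycard* fell by 0.99 in cPLA_2_ WT (SE 0.09, adjusted p = 3.22e-09, limma) and by 0.66 in cPLA_2_ KO cells (SE 0.09, adjusted p = 2.55e-06). It was the 1 member whose interaction was not called, at 0.33 (95% confidence interval 0.07 to 0.59, adjusted p = 0.0542). The same difference was called with DESeq2 (adjusted p = 0.0474), with a filter of 100 normalized counts (adjusted p = 0.0444) and, at 0.52, with the same total per library. It was also called in limma without the LPS libraries (adjusted p = 0.000373). That fit was chosen after the results were seen, but for the interaction it equals the planned fit of only the libraries compared.

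*Casp1* (GSMG0055895, chr9:5298517-5307289) and *Casp4* (GSMG0055896, chr9:5308849-5336791) lie head to tail on the plus strand, 1559 bases apart, with 10 and 9 exons. *Casp4* encodes caspase-11, the LPS-binding protease of the noncanonical pathway, which cleaves gasdermin D directly. It was at 679.7, 646 and 616 normalized counts in nonconfined and 4691, 4724 and 4912 in confined cPLA_2_ WT libraries. In cPLA_2_ KO cells it was at 861, 761 and 779 when nonconfined and at 1175, 1255 and 1275 when confined. The 4 groups did not overlap, and confined cPLA_2_ WT libraries stood far above the other 3. *Casp4* rose by 2.88 in cPLA_2_ WT cells (SE 0.08, adjusted p = 5.05e-18, limma), 7.37-fold, and by 0.63 in cPLA_2_ KO cells (SE 0.08, adjusted p = 8.47e-07), 1.54-fold. Its interaction of -2.26 was the most negative of the members (SE 0.11, adjusted p = 4.14e-13). LPS libraries ranged from 6401 to 8317 with a median of 7362, a rise of 3.33 against nonconfined cells (SE 0.05, adjusted p = 1.68e-22).

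*Casp1* encodes the protease that the inflammasome activates, and it moved less than its neighbor. Nonconfined libraries held 2502, 2779.9 and 2779 in cPLA_2_ WT and 2831, 2795 and 2621 in cPLA_2_ KO cells, and confined libraries 3972, 3769.6 and 3668 in cPLA_2_ WT and 2617, 2695 and 2512 in cPLA_2_ KO cells. Only the confined cPLA_2_ WT libraries stood apart from the other 3 groups. *Casp1* rose by 0.50 in cPLA_2_ WT cells (SE 0.06, adjusted p = 2.15e-07, limma), or by 0.28 with the same total per library, and in cPLA_2_ KO cells the difference was -0.08 (95% confidence interval -0.20 to 0.05, adjusted p = 0.307). The interaction was -0.58 (SE 0.08, adjusted p = 1.38e-05). LPS libraries ranged from 5998 to 7349 with a median of 6472, a rise of 1.27 (SE 0.04, adjusted p = 3.46e-17).

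*Gsdmd* (GSMG0018501, chr15:75734176-75739255, plus strand, 11 exons) encodes the pore-forming gasdermin D inserted in the plasma membrane. Its levels were 5091, 4829.8 and 4993 in nonconfined and 4619, 4500.2 and 4575 in confined cPLA_2_ WT libraries. In cPLA_2_ KO cells they were 5061, 4902 and 5220.3 when nonconfined and 3735, 3730.0 and 3825 when confined, the lowest of the study. *Gsdmd* fell by 0.43 with confinement in cPLA_2_ KO cells (SE 0.04, adjusted p = 7.03e-08, limma). The fall of 0.12 in cPLA_2_ WT cells (SE 0.04, adjusted p = 0.0216) was lost with TMM scaling (-0.09), with edgeR (-0.10) and without nonconfined cPLA_2_ WT library 1 (-0.11) or 3 (-0.12) or confined cPLA_2_ WT library 2 (-0.11), and grew to -0.35 with the same total per library (adjusted p = 1.37e-07, limma). The interaction of -0.30 (adjusted p = 0.000799) was not called with the same total per library (-0.12). With LPS, *Gsdmd* was 0.22 higher (adjusted p = 1.45e-06) by the authors' size factors and -0.27 with the same total per library, so that no direction is given for it.

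*Ninj1* (GSMG0013314, chr13:49341003-49349731, plus strand, 5 exons), whose product ruptures the plasma membrane at the end of lytic death, rose in confined cells of either genotype. It was at 2996, 2649 and 2660.1 normalized counts in nonconfined and 12677, 11772 and 12384 in confined cPLA_2_ WT libraries, and at 3569.7, 3226 and 3382 in nonconfined and 11232, 11449 and 11176 in confined cPLA_2_ KO libraries. No confined library overlapped a nonconfined one. The rise was 2.15 in cPLA_2_ WT (SE 0.09, adjusted p = 1.7e-14, limma), 4.44-fold, and 1.73 in cPLA_2_ KO cells (SE 0.09, adjusted p = 2.13e-12), 3.33-fold. The interaction of -0.42 (SE 0.13, adjusted p = 0.0218) was lost with the same total per library (-0.23) and without nonconfined cPLA_2_ WT library 2 (-0.38) or 3 (-0.39), nonconfined cPLA_2_ KO library 1 (-0.38) or confined cPLA_2_ WT library 1 (-0.39). LPS libraries ranged from 11518 to 15878 with a median of 14057, and the 2 lowest were the library labelled LPS cPLA_2_ KO 1 and the library labelled LPS cPLA_2_ WT 2, which had almost no *Ddx3y*. Confined cPLA_2_ WT libraries lay within this range, with a difference of -0.16 to LPS (95% confidence interval -0.32 to 0.01, adjusted p = 0.105) that became -0.27 and was called without these 2 libraries, a choice made after the results were seen. It was also called without the library labelled LPS cPLA_2_ WT 2 alone (-0.21) or LPS cPLA_2_ KO 1 alone (-0.22), and it turned to 0.13 with the same total per library (adjusted p = 0.124, limma).

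**Figure D2:**
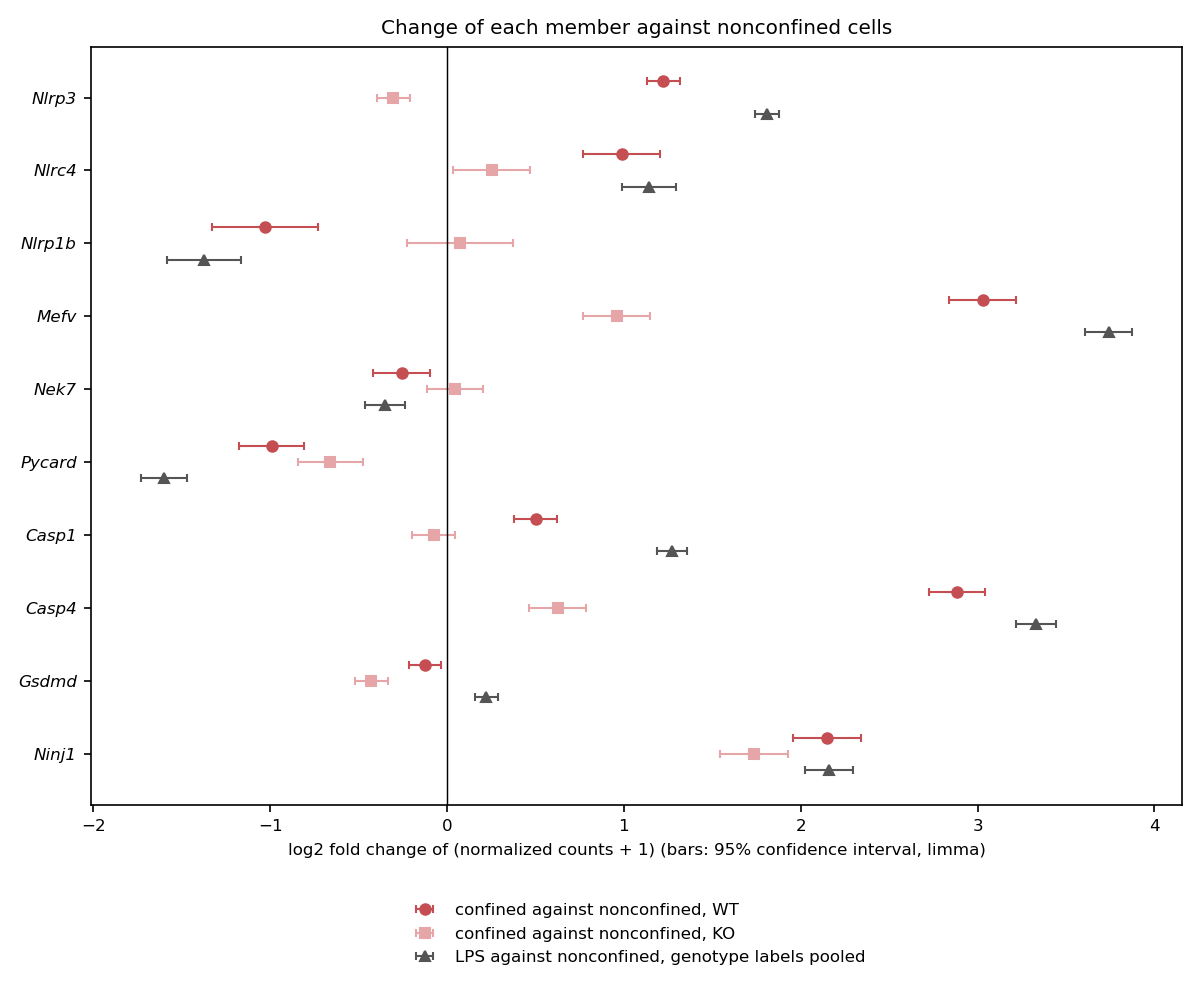
Differences in log2(normalized count + 1) from nonconfined cells (horizontal axis) for each member, with 95% confidence intervals from limma, for confinement in cPLA_2_ WT and in cPLA_2_ KO cells (3 libraries against 3) and for LPS over both genotype labels (6 against 6). Confinement in cPLA_2_ WT cells and LPS both gave their largest rises for *Mefv* and *Casp4*, the direction of *Gsdmd* with LPS turned with the same total per library, and the comparisons share nonconfined libraries.

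Genotypes were then compared within each treatment. In nonconfined cells 2 of 10 members were called, beside 8.88% of all genes tested (4.78% higher and 4.11% lower), namely *Casp4* at 0.31 (SE 0.08, adjusted p = 0.016, limma) and *Ninj1* at 0.29 (SE 0.09, adjusted p = 0.0498), each higher in cPLA_2_ KO cells and neither past an absolute log2 difference of 1, which 0.85% of all genes passed upward and 0.302% downward. The *Casp4* difference was lost without nonconfined cPLA_2_ WT library 2 (0.30) or 3 (0.27) or cPLA_2_ KO library 1 (0.25), and that of *Ninj1* without cPLA_2_ WT library 2 (0.26) or 3 (0.27) or cPLA_2_ KO library 1 (0.26) or 3 (0.30). The *Ninj1* call was also lost with a pseudocount of 0.5 (adjusted p = 0.0521), without the filter (adjusted p = 0.0923), with the same total per library (0.26) and with a replicate block. *Nek7* was called lower without cPLA_2_ KO library 2 (-0.25). In confined cells 8 of 10 members were called, 6 of them lower and 2 higher in cPLA_2_ KO, beside 39.4% of all genes, 20.6% lower and 18.8% higher. The log2 difference was -1.99 for *Mefv*, -1.95 for *Casp4* and -1.60 for *Nlrp3*, the 3 members below -1 beside 7.31% of all genes. It was -0.89 for *Nlrc4*, -0.54 for *Casp1* and -0.28 for *Gsdmd*. *Nlrp1b* at 0.84 and *Pycard* at 0.29 were higher, and no member was above 1, beside 2.79% of all genes. For *Ninj1* the 2 confined genotypes differed by -0.12 (95% confidence interval -0.31 to 0.07) and for *Nek7* by 0.13 (95% confidence interval -0.03 to 0.29). With the same total per library *Ninj1* turned to 0.03, *Gsdmd* shrank to -0.12, *Pycard* grew to 0.44 and *Nek7* was called at 0.29 (adjusted p = 0.00477), and in a limma fit of only the 6 confined libraries *Ninj1* was called (adjusted p = 0.0215). Between the libraries labelled LPS cPLA_2_ KO and LPS cPLA_2_ WT, 0 of 10 members and 0% of all genes were called with limma, as with edgeR and DESeq2. At an unadjusted p under 0.05, 0 members and 890 of 17875 genes differed. Because the labels did not hold, these counts do not compare the genotypes.

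Confined cells were then set beside LPS-treated cells. In confined cPLA_2_ WT cells 5 members were lower and 3 higher than with LPS, beside 54.3% of all genes called, 29.8% lower and 24.5% higher. The largest of these differences were those of *Casp1* at -0.79 and *Mefv* at -0.75, followed by *Pycard* at 0.63 and *Casp4* at -0.60, and none passed an absolute log2 difference of 1, which 7.84% of all genes did downward and 6.97% upward. With the same total per library *Pycard* at 0.92 and *Nlrp1b* at 0.76 were largest instead, *Casp1* was at -0.50, *Mefv* at -0.46, *Casp4* at -0.31 and *Nlrp3* at -0.26, and *Gsdmd* went from -0.36 to -0.07 and lost its call (adjusted p = 0.0795). The called difference of *Nek7* (0.18) was lost without the library labelled LPS cPLA_2_ KO 3 (0.14) and without confined cPLA_2_ WT library 1 (0.15) or 3 (0.19), and against the 3 libraries labelled LPS cPLA_2_ WT alone (0.18, adjusted p = 0.0559). It grew to 0.47 with the same total per library. In confined cPLA_2_ KO cells 7 members (*Ninj1* among them, which turned with the same total per library) were lower and 3 higher than with LPS, beside 62.9% of all genes, 32.5% lower and 30.3% higher. The differences below -1 were those of *Mefv* (-2.74), *Casp4* (-2.55), *Nlrp3* (-2.15) and *Casp1* (-1.33), beside 12.9% of all genes, and the 1 above 1 was that of *Nlrp1b* (1.32), beside 10.7%. With the same total per library *Pycard* moved from 0.92 to 1.36, above 1, and *Casp1* to -0.89, no longer below -1. *Ninj1* itself differed by -0.28 and, with the same total per library, by 0.17, and was called in both fits, so that no direction is given for it. These comparisons share the 6 LPS libraries. LPS libraries also had more normalized counts in all, 47902483 to 49506497 against 33981771 to 35275710.3 in nonconfined libraries, and scaling to the same total shifted the median of all genes to -0.47. With that scaling *Nlrp3*, *Mefv*, *Casp4* and *Ninj1* still rose with LPS, by 1.31, 3.25, 2.83 and 1.66. The rise of *Casp1* shrank from 1.27 to 0.78 and that of *Nlrc4* from 1.14 to 0.65.

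Levels were compared between members per kilobase of the canonical GENCODE transcript. The annotated *Pycard* extends 1987 bases beyond the gene in the deposited table, so that its values per kb are low estimates. Its place in the order is therefore not given on this scale. Among the other members, nonconfined cPLA_2_ WT cells had most *Gsdmd* (2517 normalized counts per kb), *Ninj1* (2011) and *Casp1* (1755) and least *Mefv* (46.4). *Pycard* was at 2018 there. In confined cPLA_2_ WT cells the order of the other members was led by *Ninj1* (8916 per kb), *Nlrp3* (3489.8) and *Casp4* (3314). *Casp1* was at 2484 and *Pycard* at 1016. *Gsdmd* was at 2311 per kb. Confined cPLA_2_ KO cells were likewise led by *Ninj1* (8196 per kb), but next among the members other than *Pycard* (1239) came *Gsdmd* (1905) and *Casp1* (1703). The order depends on the length used: per kb of all annotated exons *Pycard* (1964) rather than *Gsdmd* (1655) led in nonconfined cPLA_2_ WT cells. On that scale confined cPLA_2_ WT cells had less *Casp4* (909.9) than *Gsdmd* (1520.0), *Casp1* (1213) and *Pycard* (989), and confined cPLA_2_ KO cells less *Casp1* (832) than *Pycard* (1206) and *Nlrp3* (1144). The *Pycard* values on this second scale are low estimates for the same reason.

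The genes closest to a member in pattern were sought among the 10553 other genes with a symbol and a mean of at least 100 normalized counts, by Pearson's r of log2 values over the 18 libraries, which fall into 6 conditions. *Casp4* was closest to *Ccrl2* (r = 0.998) and *Mefv* (r = 0.997), and *Mefv* in turn to *Casp4* (r = 0.997) and *Zc3h12a* (r = 0.997). *Nlrp3* was closest to *Ifi211* (r = 0.997) and *Ifi204* (r = 0.997), both interferon-inducible genes of the family that includes the DNA sensor AIM2. For *Casp1* the closest were *Gm36161* (r = 0.994) and *Sppl2a* (r = 0.994), for *Nlrc4* *Rab11fip1* (r = 0.981) and *Rybp* (r = 0.980), and for *Ninj1* *Slc7a11* (r = 0.996), the cystine transporter, and *Riok3* (r = 0.995). *Gsdmd* was closest to *Psmb9* (r = 0.977), a subunit of the immunoproteasome, and *Fscn1* (r = 0.976). The falling members were closest to *Wdr90* (r = 0.994) and *Erp29* (r = 0.994) for *Pycard*, *Frrs1* (r = 0.967) and *Plcb2* (r = 0.964) for *Nlrp1b*, and *Fan1* (r = 0.935) and *Rpusd2* (r = 0.923) for *Nek7*.

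*Casp4*, *Mefv*, *Nlrp3*, *Casp1*, *Nlrc4* and *Ninj1* rose in confined cPLA_2_ WT cells, and promoters are shown for all of these but *Nlrc4* and *Ninj1*. RefSeq promoters (table of build GRCm38.p6, 250 bases before to 50 after each start) were found for 9 of 10 members, and each matched GRCm39 exactly and once, which gave the positions below. Motifs were searched on both strands and are in capitals: the 10-base NF-κB consensus, the 12-base interferon-stimulated response element (ISRE), the STAT letters TTCNNNGAA, the AP-1 letters TGANTCA and the PU.1 letters GAGGAA. Of all 32851 promoters these were held by 4.51%, 1.62%, 8.30%, 7.81% and 28.3%. *Casp4* held 2 overlapping NF-κB matches that share 9 bases, and the upstream start of *Nlrp3* held 1 NF-κB match and 1 ISRE match. The *Nlrp3* matches depend on these consensus forms, which replaced planned ones that were narrower for NF-κB and different for ISRE. The change was made after a first search had matched *Casp4* alone for NF-κB and no member for ISRE. GAGGAA or its complement was held by *Casp1*, *Pycard*, *Nlrp1b* and, 3 times, the downstream start of *Nlrp3*. The windows of *Mefv*, *Nlrc4*, *Ninj1* and *Nek7* held none of the motifs, and no window of a member held the STAT or AP-1 letters.
*Casp4*, chr9:5308599-5308898, GRCm39, plus strand: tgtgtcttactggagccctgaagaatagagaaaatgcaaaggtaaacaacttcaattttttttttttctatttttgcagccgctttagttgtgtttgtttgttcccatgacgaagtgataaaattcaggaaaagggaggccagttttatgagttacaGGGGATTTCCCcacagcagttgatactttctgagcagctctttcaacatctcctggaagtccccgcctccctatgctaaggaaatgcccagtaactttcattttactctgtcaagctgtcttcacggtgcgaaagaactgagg
*Mefv*, chr16:3535939-3536238, GRCm39, minus strand: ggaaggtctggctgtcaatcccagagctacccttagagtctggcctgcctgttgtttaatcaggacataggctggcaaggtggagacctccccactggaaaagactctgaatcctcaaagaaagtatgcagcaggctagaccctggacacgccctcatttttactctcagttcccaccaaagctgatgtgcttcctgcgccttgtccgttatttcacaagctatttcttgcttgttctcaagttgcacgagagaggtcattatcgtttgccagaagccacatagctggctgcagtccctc
*Nlrp3* upstream start, chr11:59432145-59432444, GRCm39, plus strand: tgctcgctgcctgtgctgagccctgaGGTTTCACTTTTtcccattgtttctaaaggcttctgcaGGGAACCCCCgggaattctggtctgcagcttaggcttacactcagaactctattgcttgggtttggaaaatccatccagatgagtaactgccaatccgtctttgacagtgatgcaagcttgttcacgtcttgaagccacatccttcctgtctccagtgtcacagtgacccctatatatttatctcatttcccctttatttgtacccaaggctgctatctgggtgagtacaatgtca
*Nlrp3* downstream start, chr11:59433262-59433561, GRCm39, plus strand: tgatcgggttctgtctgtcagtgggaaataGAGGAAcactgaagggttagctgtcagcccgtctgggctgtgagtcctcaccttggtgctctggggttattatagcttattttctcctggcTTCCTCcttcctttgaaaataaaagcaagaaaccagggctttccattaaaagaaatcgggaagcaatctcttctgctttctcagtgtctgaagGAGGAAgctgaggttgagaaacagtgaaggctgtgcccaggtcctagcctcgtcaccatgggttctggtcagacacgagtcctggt
*Casp1*, chr9:5298267-5298566, GRCm39, plus strand: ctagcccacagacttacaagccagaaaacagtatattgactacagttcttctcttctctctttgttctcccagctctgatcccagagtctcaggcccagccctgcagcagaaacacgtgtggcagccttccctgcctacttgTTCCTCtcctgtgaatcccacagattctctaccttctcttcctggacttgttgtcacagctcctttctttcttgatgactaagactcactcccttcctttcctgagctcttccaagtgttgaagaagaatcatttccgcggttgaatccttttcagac

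Most substrates and released products of the pathway had negative interactions. Of 9 such genes, 7 were higher and 1 lower in confined cPLA_2_ WT cells, beside 28.2% and 28.4% of all genes. The interaction was negative for 7 and positive for 2, beside 15.6% and 10.2%, with a median of -1.54 beside 0.05 over all genes. *Il1b*, the main substrate of caspase-1, was at 272, 321 and 287 normalized counts in nonconfined and 105806, 99731 and 102497 in confined cPLA_2_ WT libraries, and at 315, 259.7 and 337 in nonconfined and 4571, 4393 and 4739 in confined cPLA_2_ KO libraries. It rose by 8.45 in cPLA_2_ WT and by 3.91 in cPLA_2_ KO cells, with an interaction of -4.54 (SE 0.10, adjusted p = 1.58e-18, limma). *Il1a* behaved alike, with 7.70 and 3.57 and an interaction of -4.13. *Il18*, the other cytokine matured by caspase-1, was not called in cPLA_2_ WT cells: it differed by -0.06 there (adjusted p = 0.668) and fell in cPLA_2_ KO cells, at -0.61 (adjusted p = 7.45e-05), with an interaction of -0.55. Unlike *Il1b*, *Il18* began higher in nonconfined cPLA_2_ KO libraries (533, 499 and 551) than in nonconfined cPLA_2_ WT ones (306, 318 and 344), and after confinement it was at 319, 372 and 344 in cPLA_2_ KO and 336, 306 and 288 in cPLA_2_ WT libraries. The antagonist gene *Il1rn* rose by 3.60 and 2.06 (interaction -1.54), *Il18bp* had an interaction of -0.65, and *F3*, tissue factor, one of -2.09. *Il33*, named after its values were seen because its mean over all libraries was only 25.1 normalized counts, had the most negative interaction of the list (-5.38, adjusted p = 7.13e-05).

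Priming was read from 12 genes of the NF-κB response. With confinement 12 of 12 were higher in cPLA_2_ WT and 9 of 12 in cPLA_2_ KO cells, and all 12 had a negative interaction, with a median of -1.95. Of all genes 28.2% and 22.8% were higher and 15.6% had a negative interaction. The 6 with the largest interactions were *Il6* (-5.97), *Cxcl1* (-4.68), *Nfkbiz* (-3.97), *Tnfaip3* (-3.33), *Cxcl2* (-2.62) and *Nfkbia* (-2.11). With LPS 12 of 12 were higher, beside 37.2% of all genes, with a median of 3.99.

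**Figure D3:**
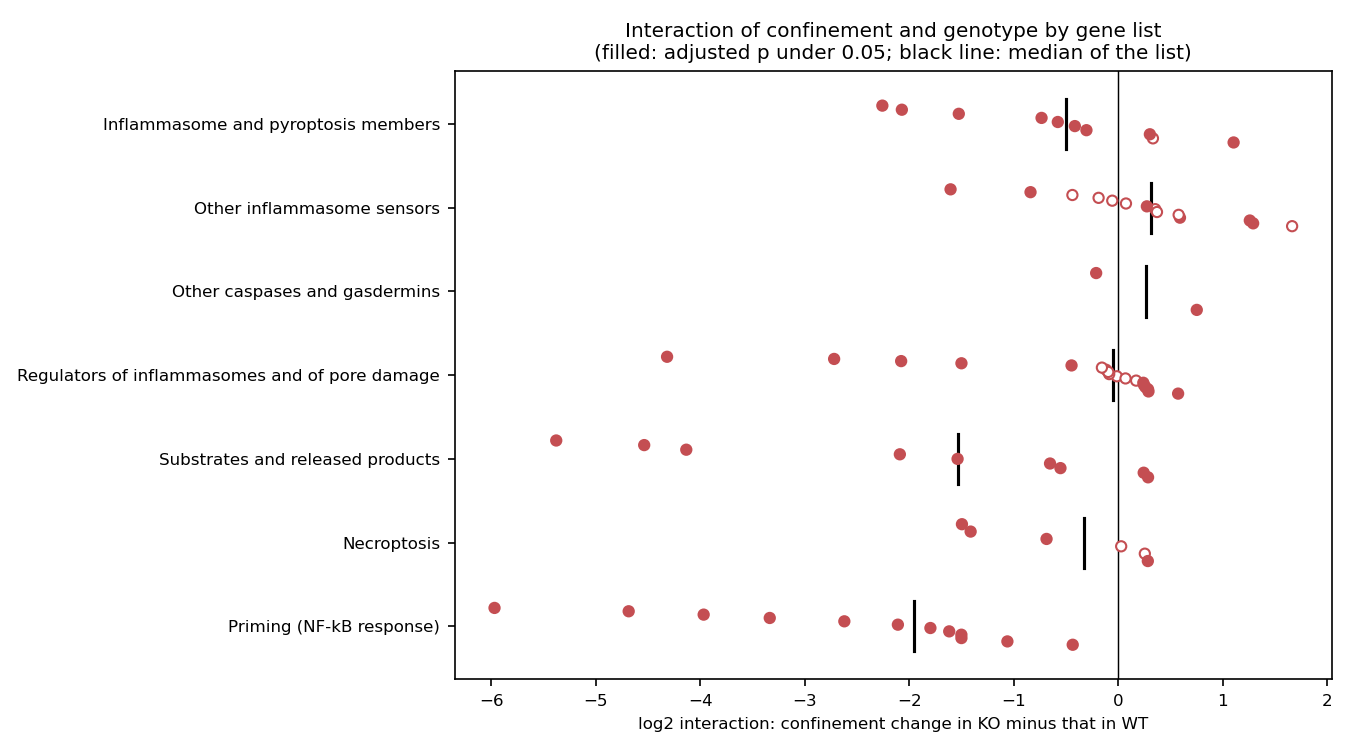
Interaction of confinement and genotype (horizontal axis, log2 change with confinement in cPLA_2_ KO minus that in cPLA_2_ WT cells) for the 10 members and the tested genes of 6 related lists. Each point is a gene, filled where its adjusted p was under 0.05, and the black line is the median of the list, which was -1.95 for priming, -1.54 for substrates and -0.50 for the members.

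Regulators of inflammasomes and of pore damage included genes with large interactions. Of 18 tested, the interaction was negative for 5 and positive for 5, beside 15.6% and 10.2% of all genes, with a median of -0.05. *Gbp5* and *Gbp2*, guanylate-binding proteins that open the way to caspase-11, rose in confined cPLA_2_ WT cells by 3.00 and 1.63 and fell in cPLA_2_ KO cells, at -1.31 and -1.09. *Gbp5* was at 13206, 13086 and 13189 normalized counts in confined cPLA_2_ WT and at 611, 493 and 561 in confined cPLA_2_ KO libraries, and its interaction of -4.32 (SE 0.09, adjusted p = 3.53e-19, limma) compares with -2.72 for *Gbp2*. *Trim30a* (-2.08), *Ripk2* (-1.50) and the membrane-repair gene *Chmp4b* (-0.45) also had negative interactions, and *Txnip*, a partner of NLRP3, a positive one (0.57) after a fall of 1.06 in cPLA_2_ WT cells.

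Other inflammasome sensors were called in both directions. Of 14 tested among 17, 5 were higher and 6 lower with confinement in cPLA_2_ WT cells, beside 28.2% and 28.4% of all genes. The interaction was positive for 4 and negative for 2, beside 10.2% and 15.6%. The negative ones were *Nlrc5* (-1.60), an inducer of MHC class I, and *Nod2* (-0.84), a sensor of bacterial cell walls, and positive ones included *Nlrp10* (0.59) and *Nlrx1* (0.27). *Aim2*, the cytosolic DNA sensor, rose by 0.43 in cPLA_2_ WT cells (adjusted p = 5.87e-07) with an interaction that was not called (-0.19, adjusted p = 0.0781).

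Among other caspases and gasdermins 2 of 10 were tested, *Gsdme* and *Casp8*, and the interaction was called for each, beside 25.8% of all genes. *Gsdme*, which encodes a second pore-forming gasdermin, fell by 0.69 in confined cPLA_2_ WT cells and was at 0.07 in cPLA_2_ KO cells (adjusted p = 0.704), with an interaction of 0.75. With LPS it fell by 2.93. The interaction of *Casp8* was -0.21. Of 6 necroptosis genes 3 had a negative and 1 a positive interaction, beside 15.6% and 10.2% of all genes, namely *Zbp1* (-1.50), *Cflar* (-1.41), *Mlkl* (-0.69), which encodes the pore-forming effector of that pathway, and *Fadd* (0.28).

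The study took the semiadherent cells of the cultures as DCs, leaving behind the loose granulocytes and the more adherent macrophages. Markers of other cell types moved along with these comparisons, and their part in the results was not tested. Dendritic cell markers were present in every library, with *Ccl22* the most abundant over the study, and summed to 443955, 415420.0 and 422724 normalized counts in nonconfined cPLA_2_ WT and 498842, 471525 and 485071 in nonconfined cPLA_2_ KO libraries, 417450.2, 391239 and 402677 in confined cPLA_2_ WT and 322515, 305639.6 and 319793 in confined cPLA_2_ KO libraries, and 1338013, 1275047 and 1321773 and 1323876, 1355102 and 1348657 in the libraries labelled LPS cPLA_2_ WT and LPS cPLA_2_ KO. *Ccl22* alone was at 48696 to 56584 in nonconfined and at 725970 to 773559 in LPS libraries, and the median marker of this list changed by 0.45 with LPS. With confinement 2 of 9 dendritic cell markers were called higher and 7 lower in cPLA_2_ WT cells, and 9 of 9 lower in cPLA_2_ KO cells. Of all genes 28.2% were higher and 28.4% lower in cPLA_2_ WT cells and 23.4% lower in cPLA_2_ KO cells, which also holds beside the counts of the other marker lists. The 10 neutrophil markers, led by *S100a9*, summed to 239174, 244267 and 242642 in nonconfined and 154396, 147187 and 144998 in confined cPLA_2_ WT libraries, to 370358, 333024 and 358226 in nonconfined and 334024, 346858 and 330984 in confined cPLA_2_ KO libraries, and to 309149, 290445 and 292501 and, by label, 277078, 312719 and 294718 in the LPS cPLA_2_ WT and LPS cPLA_2_ KO libraries. They thus fell with confinement in cPLA_2_ WT cells, where 9 of 10 were called lower, and 10 of 10 were higher in confined cPLA_2_ KO than in confined cPLA_2_ WT cells (18.8% of all genes), opposite to *Nlrp3*, *Mefv* and *Casp4*. In nonconfined cells 8 of 10 were already higher in cPLA_2_ KO (4.78% of all genes).

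Macrophage and monocyte markers summed to 58910.5, 57065 and 57484 in nonconfined and 190685, 182092 and 182710.4 in confined cPLA_2_ WT libraries, to 59897, 62864 and 60987 in nonconfined and 76257, 70567 and 73788 in confined cPLA_2_ KO libraries, and to 139017, 148751 and 138553 and 144139, 134838 and 140715 in the LPS libraries. Of these 9 genes 1 was called higher and 2 lower with confinement in cPLA_2_ WT cells, and *Cd14*, itself a gene that responds to LPS, was the higher one. *Cd14* was at 1945, 1809 and 1943 in nonconfined and 136116, 129232 and 129184 in confined cPLA_2_ WT libraries, and it made up most of the sum only in confined cPLA_2_ WT and LPS libraries. Eosinophil markers, with *Prg2* the most abundant over all libraries, summed to 28181, 27896 and 27812 in nonconfined and 7418, 6941 and 6883 in confined cPLA_2_ WT libraries, to 67608, 63231 and 65185 in nonconfined and 16396, 15911 and 16836 in confined cPLA_2_ KO libraries, and to 39729.6, 23288 and 31432 and 23085, 39326 and 32103 in the LPS libraries. Mast cell and basophil markers, *Cpa3* above all, summed to 5406, 5727 and 5546 in nonconfined and 2061, 1887 and 1903 in confined cPLA_2_ WT libraries and to 8882, 8374 and 8352 in nonconfined and 3565, 3514 and 3602 in confined cPLA_2_ KO libraries. LPS libraries gave 5218, 5114 and 5182 under the cPLA_2_ WT and 5068, 5509 and 5533 under the cPLA_2_ KO label. With confinement 3 of 4 eosinophil markers were called lower in cPLA_2_ WT and 3 of 4 in cPLA_2_ KO cells, as were 4 and 4 of 4 mast cell and basophil markers. All 3 T cell markers, led by *Cd3g*, were called lower with confinement in either genotype, and their sum was 2478, 2494 and 2435 in nonconfined and 785, 819.8 and 691 in confined cPLA_2_ WT libraries and 3172, 2855 and 3080.4 in nonconfined and 1013, 1227 and 1119 in confined cPLA_2_ KO libraries. LPS libraries gave 460.3, 438 and 448 under the cPLA_2_ WT and 402, 489.7 and 489 under the cPLA_2_ KO label. B cell markers were near 0, with sums of 22.9, 16.2 and 27.5 in nonconfined and 9.66, 15.4 and 20.1 in confined cPLA_2_ WT and of 48.6, 60.5 and 39.8 in nonconfined and 47.5, 44.8 and 31.0 in confined cPLA_2_ KO libraries. Under LPS they were 80.0, 61.3 and 73.7 for the cPLA_2_ WT and 32.9, 74.4 and 76.5 for the cPLA_2_ KO label, and *Ms4a1* was at 0 in 3 confined libraries.

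**Figure D4:**
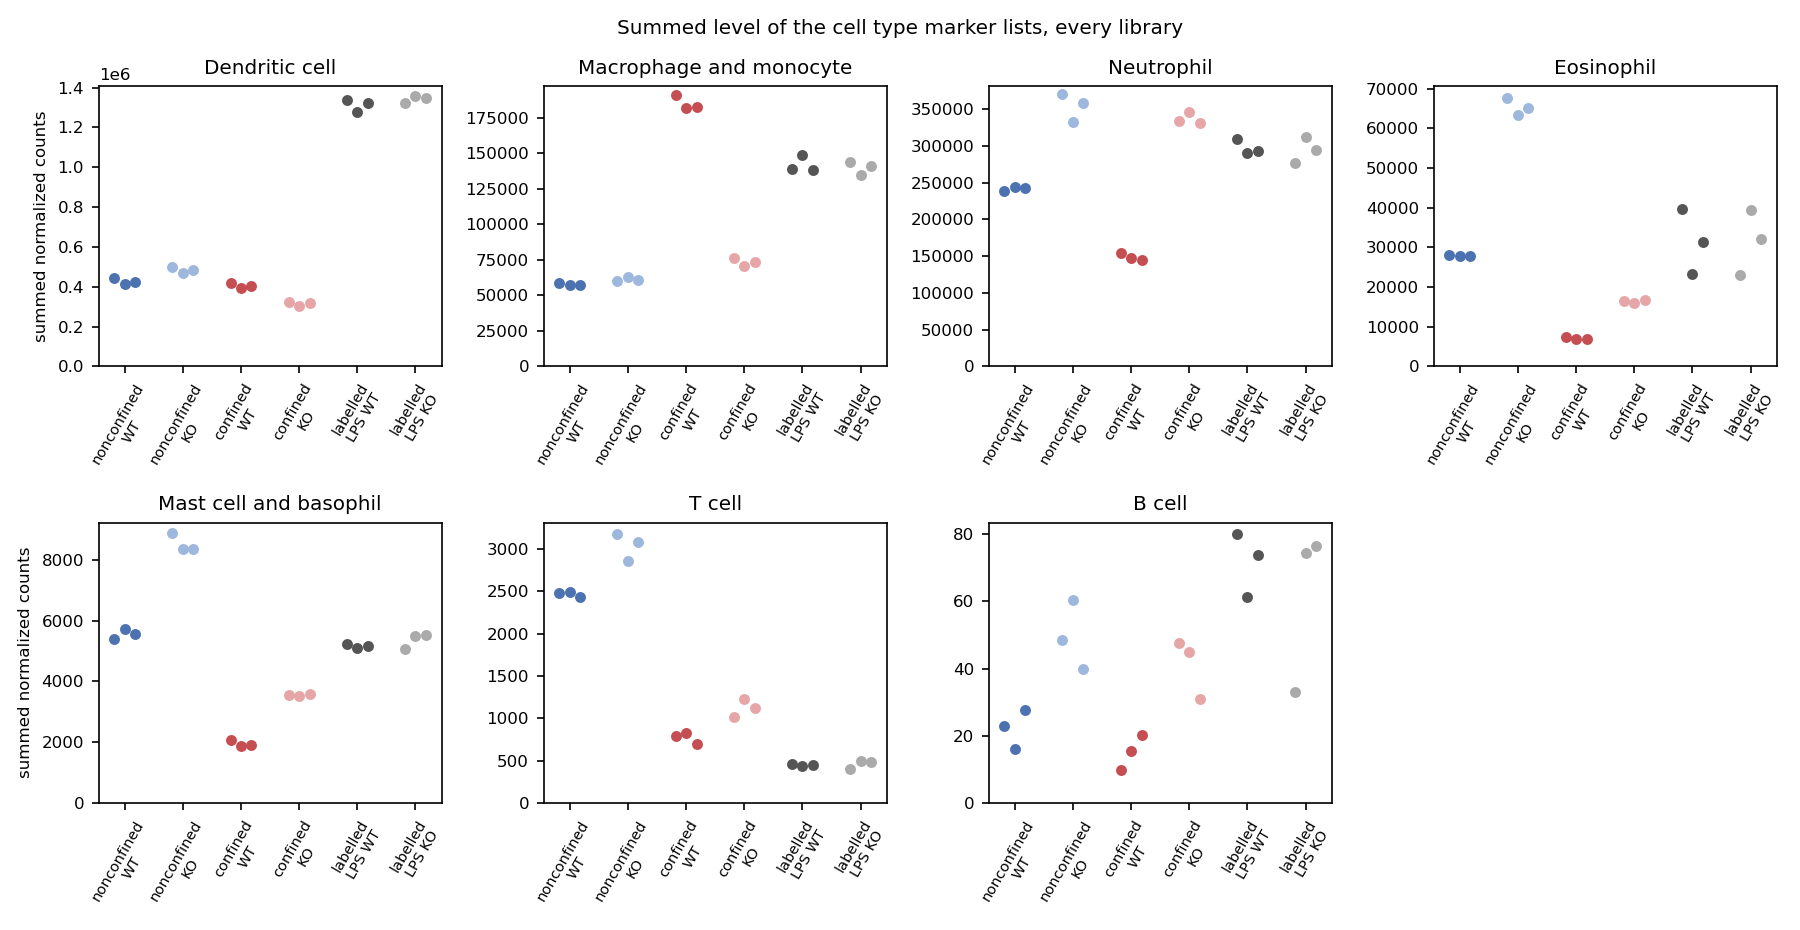
Summed normalized counts (vertical axes, linear from 0) of 7 lists of cell type markers in every library, by condition, where each point is a library. Neutrophil sums were lowest in confined cPLA_2_ WT libraries, and eosinophil sums in the LPS libraries did not part by genotype label.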

How the data were processed

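RNA of 18 libraries from 6 conditions (3 each) was measured by RNA-seq. The deposited signal is a table of normalized counts, which the authors made by aligning reads with STAR 2.7.5a, counting them per gene with featureCounts 1.5.0 and dividing by DESeq2 size factors in R 3.5.3, per the submitters' processing notes. The table's coordinates fit GRCm39. Multiplying by a factor of each library recovered whole reads, to within 0.001 reads, for 100% of values, which gave the depth. The values are not scaled for gene length. The notes name 2 library kits and do not say which library used which.

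From this table log2(normalized count + 1) was computed, and limma 3.58.1 (one fit of 6 group means, moderated with a trend, R 4.3.3) was run on genes that reached 10 normalized counts in 3 or more libraries, with Benjamini-Hochberg adjustment per comparison over the 17875 genes. The test was checked on simulated data, where it recovered 200 of 200 changed genes. All of these changed at least 2-fold, so recovery of smaller changes was not tested. Confinement, LPS and genotype were compared within the other factor, and confined with LPS libraries directly, with the 6 LPS libraries pooled because their genotype labels did not hold. Alternatives were pseudocounts of 0.5 and 5, no filter or one of 100 normalized counts, TMM scaling, the same total per library, edgeR 4.0.16 and DESeq2 1.42.0 on recovered reads, only the libraries compared, a replicate block, 2 other call rules and each library left out in turn. Fits without all LPS libraries, and without the 2 LPS libraries lowest in *Ddx3y*, were added after the results were seen.

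The members and the lists (related genes and cell type markers) were chosen with earlier results of these data known. In each related list, the named genes were up to 6 with a called interaction and a mean of at least 100 normalized counts, taken by largest absolute interaction, plus *Il1b*, *Il18*, *Aim2*, *Casp8*, *Gsdme* and *Txnip* whatever they showed. *Irgb10*, of the list of regulators, and some other genes of the related lists were not analysed here. Promoter motifs were searched again after a first look. The planned search, with narrower NF-κB and different interferon-response letters, matched only *Casp4* among the members for these 2 motifs. The consensus forms used in the report replaced it after that result was seen. Text and figures used Python 3.11.15 with numpy 2.4.6, pandas 2.3.3 and matplotlib 3.10.9, and exons and lengths are from GENCODE M39.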

Additional observations from a re-analysis of the deposited data

Results flagged for a closer look

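What was marked for a closer look is the difference between genotypes in the response to confinement, which was called for 9 of the 10 members by the interaction test, beside 25.8% of all genes. The interaction, as the log2 change in cPLA_2_ KO minus that in cPLA_2_ WT cells, was -2.26 for *Casp4*, -2.07 for *Mefv*, -1.53 for *Nlrp3*, -0.73 for *Nlrc4*, -0.58 for *Casp1*, -0.42 for *Ninj1*, -0.30 for *Gsdmd*, 0.30 for *Nek7* and 1.10 for *Nlrp1b*. The calls of *Ninj1*, *Gsdmd* and *Nek7* were lost under at least 1 alternative. In these libraries genotype goes with the mix of donor sexes (*Ddx3y* in cPLA_2_ KO only, *Xist* in all) and with the level of neutrophil and eosinophil markers, and the part of either in the differences was not tested.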

How the results depend on the processing

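Of 90 values, 10 members in 9 comparisons, 63 were called, and 53 of these kept their direction and call under every pseudocount, filter, scaling, tool and left-out library tried, while 8 lost the call at least once and 2 were reversed. Of the 27 not called, 6 were called at least once. The reversed values, each with the same total per library, were *Gsdmd* in LPS against nonconfined cells (-0.27) and *Ninj1* in confined cPLA_2_ KO cells against LPS (0.17). This scaling moved the median of all genes because LPS libraries, and less so confined cPLA_2_ WT libraries, hold more normalized counts in all. Requiring an absolute log2 change above 1 left 1 member lower with confinement in cPLA_2_ WT cells, 1 higher and 0 lower in cPLA_2_ KO cells, 1 positive and 3 negative interactions, 0 higher in nonconfined and 0 higher and 3 lower in confined cPLA_2_ KO against cPLA_2_ WT cells, 0 higher and 0 lower in confined cPLA_2_ WT cells against LPS, and 1 higher and 4 lower in confined cPLA_2_ KO cells against LPS. The rule of the study's methods (unadjusted p under 0.05 and a 1.5-fold change) gave, with the share of all genes in brackets, 2 lower (16.2%) with confinement in cPLA_2_ WT and 1 lower (11%) in cPLA_2_ KO cells, 1 positive (5.70%) and 4 negative (10.8%) interactions, 0 higher (3.36%) in nonconfined and 1 higher (7.64%) in confined cPLA_2_ KO against cPLA_2_ WT cells, and 1 higher (13.9%) and 3 lower (13.9%) in confined cPLA_2_ WT cells against LPS. Positive interactions numbered 1 with no filter, with TMM scaling and with edgeR, and members higher in nonconfined cPLA_2_ KO cells 1 with a pseudocount of 0.5, with no filter and with the same total. Leaving out each library in turn gave 1 to 2 positive interactions, and 0 to 2 higher and 0 to 1 lower in nonconfined cPLA_2_ KO against cPLA_2_ WT cells. The shares of all genes in these alternative fits are not given here, so that these counts do not set the members beside other genes. The causes were not tested. Between the libraries labelled LPS cPLA_2_ KO and cPLA_2_ WT, leaving out the 2 LPS libraries lowest in *Ddx3y*, chosen after the results were seen, gave 4 higher and 16 lower genes and 0 members.

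The libraries of different conditions share only a replicate number. With a replicate block in the fit, 1 interaction of a member was positive (*Nlrp1b*), and genes called higher and lower for the interaction numbered 1716 and 2710 in place of 1823 and 2796. In nonconfined cPLA_2_ KO cells 1 member was higher (*Casp4*), beside 767 genes in place of 854. With confinement in cPLA_2_ KO cells 4 members in place of 3 were higher (*Nlrc4* was added), beside 4021 genes in place of 4081. Correlations of libraries with the same number ran from -0.142 to 0.338, all above 0.1 in 0 of 15 pairs of conditions, and 8 of 18 libraries correlated best with their own number.

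With 3 libraries a condition, some small differences, such as the fall of *Gsdmd* in confined cPLA_2_ WT cells and the interaction of *Nek7*, depend on single libraries. Treatment goes with time and handling, and genotype with the mix of donor sexes. All values are RNA levels, so processing of caspase-1, gasdermin D or IL-1β was not measured.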
